A study of Homo sapiens with 6 samples.

Results

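The 40 genes described here encode the enzymes and transporters of glycolysis, the oxygen-sensing pathway of the hypoxia-inducible factors (HIF) and well-known HIF targets. They were taken as the rows of the normalized count table whose symbol equals 1 of 40 listed names, and all 40 were found among the 20347 symbols of the table. RNA-seq was made in PaTu8988t, an established human cell line of pancreatic ductal adenocarcinoma (PDAC), grown in high-glucose medium with serum. The study grew cells for RNA to a range of high confluency and described no low-oxygen treatment. The cell density of each library was not given, and its part in the differences below was not tested. The control cells carried the Lenti-CRISPR V2 vector with an unspecific guide RNA and gave 3 replicate libraries, the *SAMD1* knockout (KO) cells carried the same vector with guides against *SAMD1* and gave 3 libraries, and each KO library is 1 clonally independent clone. Both groups thus carried the vector, and single clones were selected with puromycin. The labels do not say whether the Control cells were a clone or a pool, or whether the Control replicates came from separate cultures, and their spread may be technical.

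Glycolysis breaks glucose down to pyruvate in the cytosol, and cancer cells often send the pyruvate on to lactate. HIF is a pair of an oxygen-labile alpha subunit and a stable beta subunit. At normal oxygen the EGLN prolyl hydroxylases mark the alpha subunit and VHL sends it to degradation, while at low oxygen HIF accumulates and turns on glucose transporters, most glycolytic enzymes and genes for angiogenesis, pH control and mitophagy. SAMD1 is a CpG island-binding repressor that works with the histone demethylase KDM1A.

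In the KO clones 4 of these genes passed the test of the comparison with Control, and most glycolytic enzymes did not. *HK2*, the inducible hexokinase, fell to 67.9% of its Control mean, and *ADM*, which encodes the vasodilator peptide adrenomedullin, fell to 25.2%. *ENO2*, the neuronal enolase, rose to 1.92 times its Control mean, and *ALDOA*, the muscle-type aldolase, rose to 1.46 times. The 4 genes passed a cut-off with the limits set by the study, a log2 fold change beyond 0.5 with a p below 0.01. The p was taken here as unadjusted, which the study did not state. The p here is from limma on log2(normalized count + 1), whereas the study took its p from DESeq2. With DESeq2 in place of limma *SLC2A3* also passed these limits, as given below. A normalized count is a read count divided by 1 scaling factor of its library. In such bulk samples fewer cells that express a gene and less RNA per cell cannot be told apart.

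Of the 40 genes, 37 reached the minimum mean of 10 normalized counts and were tested among 12773 genes. The 2 that rose compare with 5.77% of all tested genes that rose, and the 2 that fell with 2.08%, so the count that rose is near the background and the count that fell is small. Where the call was a p below 0.05 after Benjamini-Hochberg adjustment, with no limit on the fold, 3 were higher (*ENO2*, *ALDOA* and *KDM3A*) and 5 were lower (*HK2*, *SLC2A1*, *PGAM1*, *ADM* and *NDRG1*), against 8.32% and 4.7% of all tested genes. The median log2 fold change of the 37 genes was -0.04, and that of all tested genes was -0.0059. No overlap between the values of the KO clones and of Control was seen in 19 of the 37 genes, 8 being higher and 11 lower in KO, and in 37.8% of all tested genes. With 3 libraries a group an exact permutation test has a smallest p of 0.1, and the p-values are therefore those of limma unless another test is named.

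**Figure D1:**
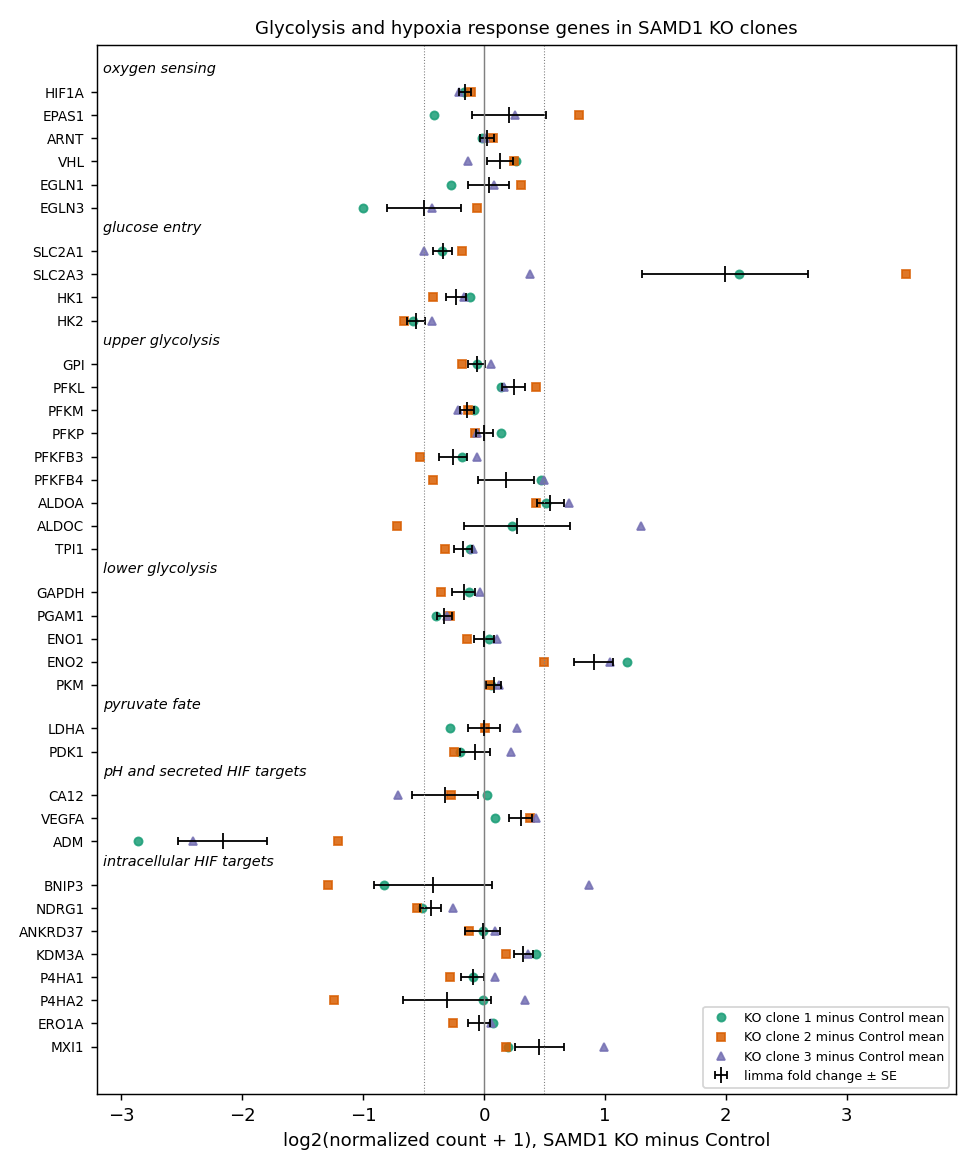
Difference of each of the 3 *SAMD1* KO clones from the Control mean on log2(normalized count + 1) for the 37 tested genes, ordered by role. Coloured symbols are clones, black bars are the limma fold change ± SE, and dotted lines mark 0.5 in either direction. *ADM* lies far to the left in every clone (-2.86, -1.21 and -2.41), *SLC2A3* spreads from 0.38 to 3.49, and most glycolytic enzymes lie within the dotted lines.

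The labels held for the targeted gene. *SAMD1* stood at 2231, 2382 and 2299 normalized counts in the Control replicates and at 874, 1082 and 825 in the clones, which is -1.32 ± 0.10 on the log2 scale (SE, adjusted p = 0.00072). Library totals ran from 35589477 to 45172216 recovered reads. Of 6 epithelial markers, *KRT8* and *KRT18* were abundant and carried the summed level. *EPCAM* was at 422 to 626 normalized counts, *CDH1* at 24.0 to 45.8 and *KRT7* at 26.4 to 34.3 in Control and 78.1 to 90.7 in KO, whereas *KRT19*, a defining ductal keratin, was listed at 0 in every library. Of 11 markers of leukocytes, endothelium and fibroblasts, 7 had a mean under 10, with *CD3E* and *DCN* at 0, and their sum was 137 to 147 in Control and 61.3 to 110 in the KO clones. The summed epithelial markers were 62727 to 65936 in Control and 67655 to 108596 in the KO clones, and the part of these markers in the results was not tested. Pairs of KO clones differed far more than pairs of Control replicates. The chi-square per degree of freedom of the reads was 50.9 to 58.5 between clones and 2.64 to 5.19 between Control replicates.

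The promoter windows of the genes that fell are shown because HIF and SAMD1 are both known to bind short CG-containing words. RefSeq (GRCh38.p14) gave windows of 250 bases before to 50 after a start for 36 of the 40 genes, 62 windows in all. *VHL*, *SLC2A3*, *VEGFA* and *NDRG1* had no entry. The words searched were ACGTG and GCGTG, the core letters of the hypoxia response element, on both strands, and GCGC, known as the preferred word of SAMD1, which reads the same on both strands. ACGTG on one strand can overlap ACGTG on the other, and each is then counted. The printed parts lie upstream of the start and outside annotated exons, 5′ to 3′ on the strand of the gene, with ACGTG or GCGTG of either strand in capitals. *HK2* (chr2:74833877-74834126, + strand) and *ADM* (chr11:10304823-10305072, + strand) are the genes that fell. *BNIP3* (chr10:131981968-131982173, - strand), a classical HIF target, had the widest spread between clones in the groups of HIF targets below. It was 4.47-fold from lowest to highest, against 8.87-fold for *SLC2A3*, which is grouped with glucose entry.
HK2: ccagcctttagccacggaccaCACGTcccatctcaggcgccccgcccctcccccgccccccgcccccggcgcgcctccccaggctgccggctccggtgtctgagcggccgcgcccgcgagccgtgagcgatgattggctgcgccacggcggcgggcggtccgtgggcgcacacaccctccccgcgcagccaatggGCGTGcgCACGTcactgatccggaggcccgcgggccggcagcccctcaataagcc
ADM: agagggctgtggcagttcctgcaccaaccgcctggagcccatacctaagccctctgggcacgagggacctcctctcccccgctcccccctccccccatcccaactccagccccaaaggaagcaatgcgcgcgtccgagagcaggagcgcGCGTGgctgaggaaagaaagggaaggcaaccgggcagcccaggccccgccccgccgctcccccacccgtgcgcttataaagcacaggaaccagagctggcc
BNIP3: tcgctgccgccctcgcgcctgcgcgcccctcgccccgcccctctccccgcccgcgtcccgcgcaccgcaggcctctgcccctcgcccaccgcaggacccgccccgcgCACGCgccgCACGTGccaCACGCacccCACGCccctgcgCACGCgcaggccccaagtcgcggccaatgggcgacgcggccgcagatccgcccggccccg
These stretches hold 3, 1 and 6 matches to ACGTG or GCGTG. The *HK2* stretch holds 8 matches to GCGC, that of *ADM* 5 and that of *BNIP3* 8. Another window of *HK2*, at a different start and not printed, held 6 matches to ACGTG or GCGTG and 4 to GCGC. The *ENO2* window, which overlaps an annotated exon and is not printed, held 1 match to ACGTG and 8 to GCGC. Over the windows of each gene, 32 of the 36 members with an entry (88.9%) held at least 1 hypoxia core word. This compares with 52.4% of 27305 genes, tested or not, and 35 members (97.2%) held GCGC against 59.6%. Members had more windows per gene, 62 for 36 genes against 35116 for 27305, which raises such a share. By window the shares were 67.7% against 48.4% for the core words and 80.6% against 57.2% for GCGC. Neither comparison was matched for GC content or for expression, and their part in these shares was not tested. Such matches are letters only, and the genes that fell, rose or did neither all include genes with them. *PGAM1* was the member whose window held none of the 3 words.

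The oxygen-sensing genes did not pass the cut-off in either direction. *HIF1A*, the main HIF alpha subunit, had normalized counts of 12922, 12943 and 13575 in Control and of 11736, 12230 and 11404 in the KO clones, so the groups did not overlap. The difference was small, at a log2 fold change of -0.16 ± 0.05 (SE), and the adjusted p was 0.0921. *EPAS1*, which encodes the alternative alpha subunit HIF2-alpha, was low, with means of 168 ± 34.7 (SD) in Control and 202 ± 80.9 in KO (log2 fold change 0.21 ± 0.31). *ARNT*, the beta subunit, had 3080 ± 150 (SD) in Control and 3128 ± 102 in KO, a log2 fold change of 0.02 ± 0.06. *VHL*, the substrate receptor of the ligase that degrades HIF alpha, was at 4546 and 4494 in clones 1 and 2 and at 3441 in clone 3, with Control values of 3684 to 3833. Its 40 neighbouring genes had median log2 differences of 0.29, 0.27 and 0.03 in clones 1 to 3, and with that regional shift removed the fold change of *VHL* turned from 0.13 to -0.07.

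The groups overlapped for *EGLN3* and *EGLN1*, the oxygen-sensing hydroxylases among the members. *EGLN3*, itself a HIF target, had 35.5, 32.3 and 25.2 normalized counts in Control and 14.8, 29.4 and 22.5 in KO, which overlap (log2 fold change -0.50 ± 0.31, adjusted p = 0.321). *EGLN1*, the main HIF prolyl hydroxylase, had 466, 612 and 510 in Control and 434, 651 and 556 in KO. Its log2 fold change was 0.04 ± 0.17. The annotation places 69.3% of the canonical *EGLN1* transcript on same-strand exons of another gene, so reads could be split or dropped there, and its level is uncertain.

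In all 4 genes of glucose entry the groups did not overlap, against 37.8% of all tested genes, and 3 were lower and *SLC2A3* was higher in KO. Of the 4, *HK2* and *SLC2A1* had an adjusted p below 0.05. *HK2* (chr2:74834127-74893359) phosphorylates glucose and is bound to mitochondria. It stood at 2931, 2897 and 3058 normalized counts in Control and at 1967, 1870 and 2192 in KO clones 1 to 3. Every clone was below every Control replicate and the clones lay close together. The log2 fold change was -0.56 ± 0.07 (SE, adjusted p = 0.0039), and *HK2* stayed past the cut-off in all 16 alternative analyses, from -0.63 to -0.51.

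*SLC2A1* encodes GLUT1, the basal glucose transporter. Its normalized counts were 9778, 10027 and 9668 in Control and 7703, 8639 and 6974 in KO, with no overlap. The log2 fold change of -0.34 ± 0.08 (adjusted p = 0.0329) was under the limit of 0.5. *HK1*, the housekeeping hexokinase, was at 9771, 10091 and 10006 in Control and at 9177, 7451 and 8888 in KO, also without overlap (log2 fold change -0.23 ± 0.08, adjusted p = 0.11).

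*SLC2A3*, which encodes the high-affinity transporter GLUT3, differed most between clones. It had 26.3, 25.4 and 26.3 normalized counts in Control and 116, 303 and 34.2 in KO clones 1 to 3. All clones were above Control, clone 2 by a log2 difference of 3.49 and clone 3 by 0.38. The log2 fold change was 1.99 ± 0.68 with a limma p of 0.0215 (adjusted p = 0.102), so it did not pass the cut-off. On the recovered reads it passed the cut-off with edgeR (log2 fold change 2.54, adjusted p = 0.0644) and with DESeq2 (2.54, adjusted p = 0.00088). Without clone 3 it also passed with limma, at 2.80 (adjusted p = 0.0079), and without clone 2 it was at 1.25 (adjusted p = 0.142). Per kilobase of transcript *SLC2A3* was 0.23% of the 2 transporters in Control, and between 0.43% and 3.01% in the clones, so GLUT1 mRNA dominated throughout.

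The enzymes from glucose 6-phosphate to the triose phosphates did not pass the cut-off apart from *ALDOA*. *GPI*, the isomerase that follows hexokinase, had a log2 fold change of -0.06 ± 0.07, and *PFKP*, the platelet phosphofructokinase, had 0.0033 ± 0.07. *PFKL*, the liver phosphofructokinase, had 3377, 3940 and 3438 normalized counts in Control and 3946, 4809 and 4012 in KO, which do not overlap (log2 fold change 0.25 ± 0.10, adjusted p = 0.14). *PFKM*, the muscle form, went the other way in value, with 6048, 5680 and 5825 in Control and 5537, 5341 and 5037 in KO (-0.14 ± 0.06, adjusted p = 0.143). Per kilobase *PFKP* made 70.6% ± 0.28 (SD) of the 3 phosphofructokinase mRNAs in Control and 70.3% ± 2.31 in KO. *TPI1*, triosephosphate isomerase, had a log2 fold change of -0.17 ± 0.07 (adjusted p = 0.158).

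The PFKFB enzymes make and remove fructose 2,6-bisphosphate, the activator of phosphofructokinase. *PFKFB3* had 2746, 2744 and 2766 normalized counts in Control and 2423, 1911 and 2650 in KO, all clones being below Control (log2 fold change -0.25 ± 0.11, adjusted p = 0.187). *PFKFB4* had 1370, 1347 and 1408 in Control and 1909, 1029 and 1937 in KO, so clone 2 was below and clones 1 and 3 were above the Control range (0.18 ± 0.23, adjusted p = 0.638). Without clone 2 *PFKFB4* was at 0.48 with limma (adjusted p = 0.0043), still under the fold limit. Its 40 neighbouring genes had regional medians of 0.26, 0.29 and -0.01, with the shift of clone 2 opposite to that of the gene.

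*ALDOA* (chr16:30064164-30070457) cleaves fructose 1,6-bisphosphate. It had 532, 628 and 526 normalized counts in Control and 799, 754 and 915 in KO, and no clone overlapped Control. The log2 fold change was 0.55 ± 0.11 (SE, adjusted p = 0.0195). It passed the cut-off in 15 of 16 alternatives, the exception being the fit without clone 3 (0.47 ± 0.10, adjusted p = 0.0309), and its adjusted p was above 0.05 without Control replicate 1 or 3. The annotation puts 89.8% of its canonical transcript on same-strand exons of a readthrough gene, and at 343 normalized counts per kilobase in Control it ranked 28 of the 40 genes. The counting rule for such shared exons was not given in the sources used here, so the level of *ALDOA* and its change cover only the reads assigned to it.

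*ALDOC*, the brain-type aldolase, stood at 1575, 1741 and 1493 in Control and at 1883, 971 and 3945 in KO. The clones lay on both sides of Control and differed 4.06-fold from lowest to highest, and the log2 fold change of 0.27 ± 0.44 was within that spread (adjusted p = 0.719).

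Among the lower glycolytic enzymes 1 rose, 1 was lower by the adjusted p alone and 3 did not pass either test. *ENO2* (chr12:6913745-6923698) had 2084, 2144 and 2100 normalized counts in Control. The KO clones had 4800, 2978 and 4341. All clones were above Control, with clone 2 the least raised. Its log2 fold change was 0.91 ± 0.16 (SE, adjusted p = 0.0133) and ran from 0.77 to 1.11 over 16 alternatives, each past the cut-off.

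*ENO1*, the ubiquitous enolase that acts at the same step, had 113095, 111234 and 108842 in Control and 113997, 100500 and 119349 in KO, with clones on both sides. Its log2 fold change was -0.00067 ± 0.08. Per kilobase *ENO2* therefore made 1.45% ± 0.04 (SD) of enolase mRNA in Control and 2.72% ± 0.46 in KO.

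*PGAM1*, phosphoglycerate mutase, had 1939, 1922 and 1868 normalized counts in Control and 1453, 1574 and 1541 in KO. The clones lay close together and none overlapped Control (log2 fold change -0.33 ± 0.06, adjusted p = 0.0134). *PKM*, pyruvate kinase, had 77477 ± 1191 (SD) in Control and 81852 ± 2186 in KO, a log2 fold change of 0.08 ± 0.06 (adjusted p = 0.423).

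*GAPDH*, the glyceraldehyde phosphate dehydrogenase, is the gene to which the study scaled its RT-qPCR, and it was chosen for values by library after these had been seen. It had 114932, 114139 and 112272 in Control and 104594, 88928 and 111327 in KO clones 1 to 3. Every clone was below every Control replicate, clone 2 by a log2 difference of -0.36, and the log2 fold change was -0.17 ± 0.09 (adjusted p = 0.275). The primers that the study listed for it, 5′ to 3′, are written here in capitals throughout, since the whole primer pairs with its target.
forward: AGCCACATCGCTCAGACAC
reverse: GCCCAATACGACCAAATCC
They flank a product of 66 bases at bases 57 to 122 of the canonical *GAPDH* transcript, and both were found in 7 of its 11 annotated transcripts and in those of no other gene.

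Neither tested gene of pyruvate fate differed between the groups beyond the spread of the clones. *LDHA*, which turns pyruvate to lactate, had 78884, 75357 and 80113 normalized counts in Control and 64295, 78452 and 94195 in KO. Clone 1 was below, clone 2 within and clone 3 above the Control range (log2 fold change -0.0011 ± 0.13). Its 40 neighbouring genes had medians of -0.28, 0.10 and 0.16 in the same clones. *PDK1*, the kinase that shuts pyruvate dehydrogenase, had 1593, 1531 and 1578 in Control and 1363, 1323 and 1827 in KO, with clones 1 and 2 below and clone 3 above Control (-0.08 ± 0.12, adjusted p = 0.723). *LDHB*, the subunit that favours the reverse reaction, had 0 reads in all 6 libraries. The annotation puts 76.5% of its transcript on same-strand exons of a readthrough gene, so 0 is a count of assigned reads and does not show that the gene is silent.

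**Figure D2:**
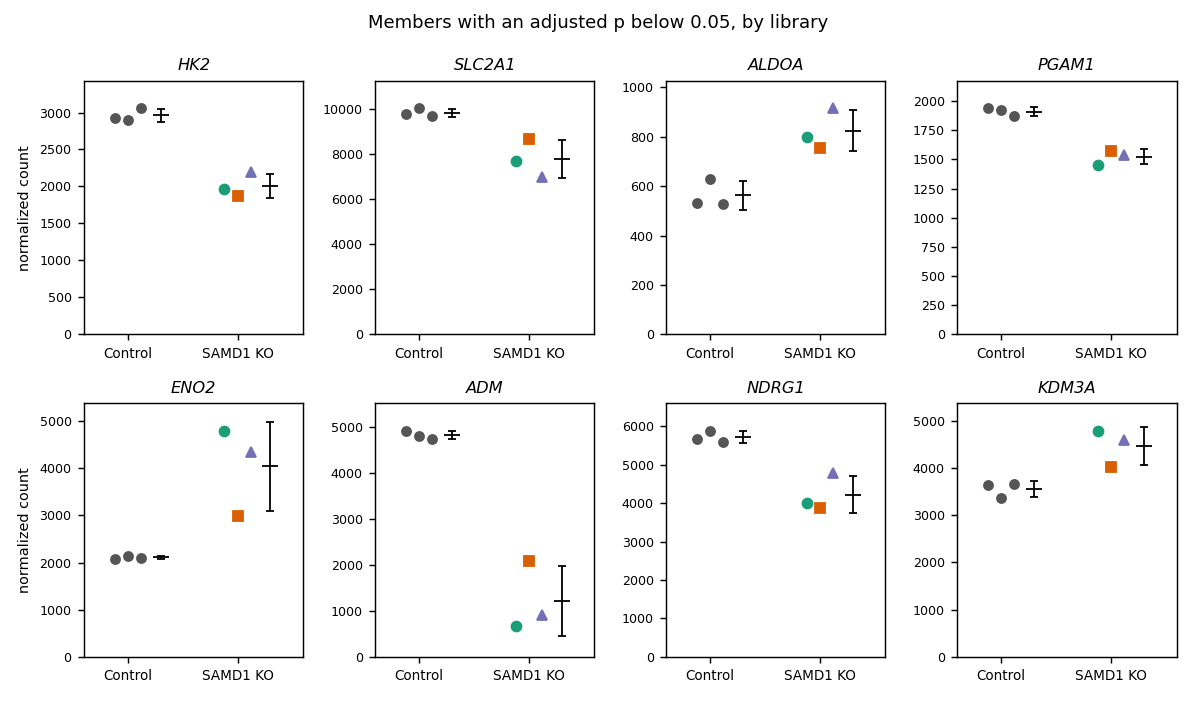
Normalized counts in each library for the 8 members with an adjusted p below 0.05. Grey circles are Control replicates, the coloured circle, square and triangle are KO clones 1, 2 and 3, and bars are the mean ± SD (n = 3). In each panel the groups are separate, and the KO clones of *ADM* (663 to 2084) spread far more than those of *PGAM1* (1453 to 1574).

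The secreted and pH-regulating HIF targets were led by *ADM* (chr11:10305073-10307397). Its normalized counts were 4927, 4819 and 4738 in Control and 663, 2084 and 908 in KO. Every clone was far below Control, and clone 2 kept the highest level of the clones. On the log2 scale it fell by 2.16 ± 0.37 (SE, adjusted p = 0.0111), with values of -2.64 to -1.81 over the alternatives. Per kilobase *ADM* ranked 9 of the 40 genes in Control, at 3236, above *SLC2A1* at 2903, and in KO it was at 817.

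*VEGFA*, the angiogenic growth factor, moved in the opposite direction in value. It had 1434, 1503 and 1387 normalized counts in Control and 1537, 1880 and 1946 in KO, which do not overlap (log2 fold change 0.30 ± 0.10, adjusted p = 0.0861). In 3 of 16 alternatives the adjusted p of *VEGFA* was below 0.05, with DESeq2 at 0.0383, but it passed the cut-off in none. *CA12*, a membrane carbonic anhydrase, was at 22.5 to 25.2 in Control and 14.4 to 24.7 in KO (-0.32 ± 0.27, adjusted p = 0.472). *CA9*, the carbonic anhydrase that is a standard hypoxia marker, had 1 read in Control replicate 3 and 0 in the other libraries, and *ANGPTL4*, a secreted lipase inhibitor, had 0 to 6 reads. Both are at or near the limit of 3 reads that a count of 0 allows, and no fold is given.

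The intracellular HIF targets included 1 gene lower and 1 gene higher by the adjusted p, neither past the fold limit. *NDRG1*, a stress-induced gene often described as a metastasis suppressor, had 5666, 5893 and 5597 normalized counts in Control and 4008, 3889 and 4778 in KO. No clone overlapped Control, and clone 3 was nearest to it. Its log2 fold change was -0.44 ± 0.08 (adjusted p = 0.0157), and without clone 3 it was -0.53 and passed the cut-off. On the same strand another gene covers 24.9% of its transcript.

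*KDM3A*, a histone H3K9 demethylase induced by HIF, had 3652, 3359 and 3670 in Control and 4796, 4026 and 4586 in KO, with every clone above Control (0.33 ± 0.08, adjusted p = 0.0363). *ERO1A*, an oxidase of the endoplasmic reticulum, *P4HA1*, a collagen prolyl hydroxylase subunit, and *ANKRD37* had log2 fold changes of -0.04 ± 0.09, -0.09 ± 0.09 and -0.01 ± 0.14.

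The remaining 3 intracellular targets were set apart by differences between clones, and were chosen for values by library after these had been seen, as was *ALDOC*. *BNIP3*, a mitophagy receptor, had 1749, 1715 and 1914 normalized counts in Control and 1008, 730 and 3263 in KO. Clones 1 and 2 were below and clone 3 was above the whole Control range, so the log2 fold change of -0.42 ± 0.49 (adjusted p = 0.612) stands for none of them. Without clone 3 it was -1.06 and past the cut-off (adjusted p = 0.0065), and without clone 2 it was 0.02.

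*P4HA2*, the other prolyl hydroxylase subunit, had 631, 629 and 573 in Control and 606, 257 and 771 in KO. *MXI1*, a MYC antagonist, had 1185, 1177 and 1178 in Control and 1357, 1339 and 2346 in KO, with clone 3 far above the others. Neither passed the test over all clones, with log2 fold changes of -0.31 ± 0.36 for *P4HA2* (adjusted p = 0.619) and 0.46 ± 0.20 for *MXI1* (adjusted p = 0.185). Neighbouring genes shifted too, but not always in the direction of the gene. The regional medians were -0.31, -0.31 and 0.24 around *BNIP3*, -0.31, -0.32 and 0.15 around *MXI1* and 0.01, -0.59 and -0.01 around *P4HA2*. The sign was that of the gene for *BNIP3* and for clone 2 of *P4HA2*. It was opposite to that of *MXI1* in clones 1 and 2, where the gene had log2 differences of 0.20 and 0.18. With the regional shift removed *MXI1* passed the cut-off, at 0.62 ± 0.09 (adjusted p = 0.0042), while *BNIP3* was at -0.29 ± 0.34 and *P4HA2* at -0.11 ± 0.22.

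**Figure D3:**
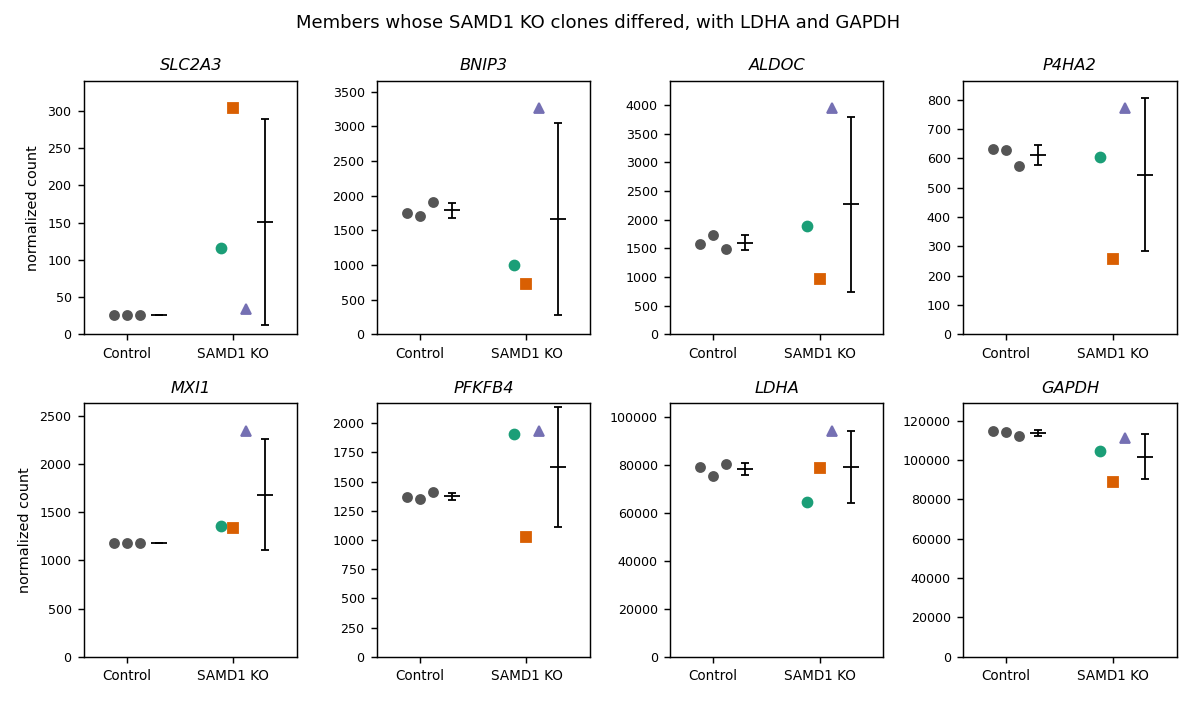
Normalized counts in each library for 6 members whose KO clones differed, with *LDHA* and *GAPDH*. Grey circles are Control replicates, the coloured circle, square and triangle are KO clones 1, 2 and 3, and bars are the mean ± SD (n = 3). Clone 3 is the highest of the clones in all panels but *SLC2A3*, where clone 2 is highest with 303.

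The order of the clones recurred across the members, and this was noticed after the values had been seen. Clone 2 was the lowest of the clones in 22 of the 37 genes (59.5%) and clone 3 the highest in 19 (51.4%), against 33.3% and 32.8% of all tested genes. Both held together in 17 members (45.9%) and in 16.2% of all tested genes. The order was not limited to the members. Among 61 other tested genes of the HIF pathway and the hypoxia response clone 2 was the lowest in 54.1%, clone 3 the highest in 52.5% and both held in 31.1%, and among 50 other tested genes of glycolysis and pyruvate use these shares were 50%, 36% and 22%. In the intracellular HIF targets clone 2 was the lowest in 8 of 8, and in upper glycolysis in 7 of 9. In oxygen sensing clone 2 was instead the highest in 5 of 6 genes. All genes of a clone come from 1 library, so these shares are a description of 3 libraries and carry no test. The clones differed by more than 1 on the log2 scale in 6 members (16.2%) and in 7.99% of all tested genes, and the Control replicates in no member and in 202 of the 12773 tested genes. The median SD between clones on the log2 scale was 0.18 for the members and 0.15 for all tested genes, and between Control replicates 0.04 and 0.06.

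Pairs of members that do the same job were compared within each library, where scaling between libraries cancels. Of 10 testable pairs, 6 had ratios that did not overlap between the groups. No such share was computed over other pairs of genes, and of single tested genes 37.8% did not overlap. Each of the 6 pairs has an exact two-sided permutation p of 0.1, the smallest that 3 against 3 libraries allow, or 0.167 after Benjamini-Hochberg adjustment over the 10 pairs, so none passed a threshold of 0.05. The log2 ratio of *ENO2* to *ENO1* went from -5.72 ± 0.04 (SD) to -4.81 ± 0.25, and that of *HK2* to *HK1* from -1.75 ± 0.05 to -2.08 ± 0.13. Both shifts had the same sign in 3 of 3 clones, which is so for any pair without overlap and adds nothing to it.

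The ratio of *SLC2A3* to *SLC2A1* went from -8.51 ± 0.05 to -6.17 ± 1.41. *PFKFB4* to *PFKFB3* went from -1.001 ± 0.03 to -0.56 ± 0.29, *PFKM* to *PFKL* from 0.71 ± 0.16 to 0.32 ± 0.17 and *EGLN3* to *EGLN1* from -4.05 ± 0.33 to -4.59 ± 0.18. The gap was narrow in *PFKM* to *PFKL*, with the nearest libraries at 0.53 in Control and 0.49 in KO. In *EGLN3* to *EGLN1* they were at -4.28 and -4.42, and *EGLN3* had only 15 to 34 reads. The ratios *EPAS1* to *HIF1A*, *PFKP* to *PFKL*, *ALDOC* to *ALDOA* and *P4HA2* to *P4HA1* overlapped, and *LDHB* to *LDHA* and *CA9* to *CA12* could not be formed.

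**Figure D4:**
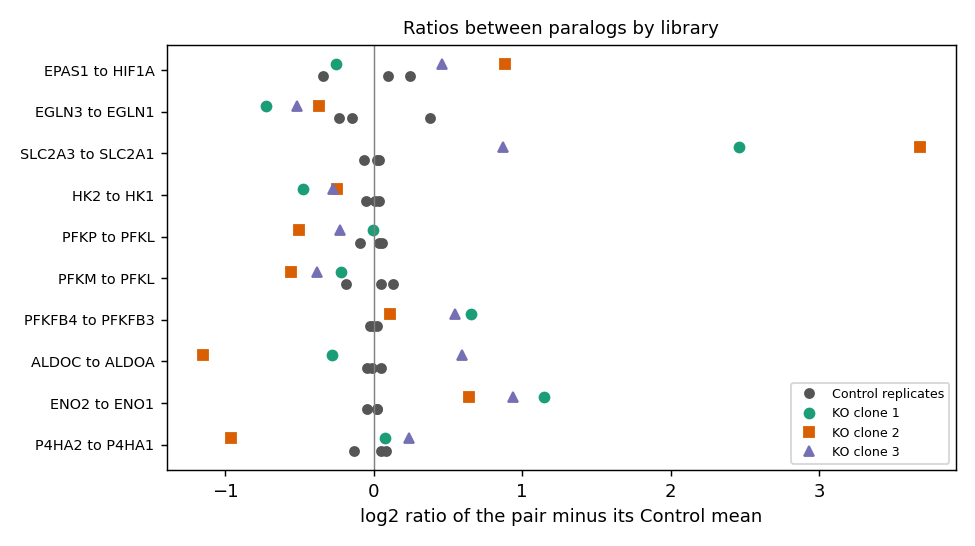
Log2 ratio of the normalized counts of 10 pairs of paralogs in each library, minus the Control mean of the pair. Grey circles are Control replicates, and the coloured circle, square and triangle are KO clones 1, 2 and 3. For *ENO2* to *ENO1* all clones lie above Control and for *HK2* to *HK1* all lie below, while *ALDOC* to *ALDOA* and *P4HA2* to *P4HA1* lie on both sides.

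The calls among other genes of glycolysis and pyruvate use were near the background. Of 59 listed genes 50 were tested, 2 rose (4%, against 5.77% of all tested genes) and 1 fell (2%, against 2.08%), with a median log2 fold change of 0.04. *PDK3*, a pyruvate dehydrogenase kinase like *PDK1*, rose from 802 ± 31.6 (SD) to 1539 ± 215 normalized counts (log2 fold change 0.93 ± 0.10, adjusted p = 0.0025). Its 40 neighbours had medians of 0.41, 0.41 and 0.46 in clones 1 to 3. *PCK2*, a mitochondrial enzyme of gluconeogenesis, rose from 129 ± 6.93 to 210 ± 39.9 (0.68 ± 0.17), and *GAPDHS*, the sperm form of *GAPDH*, fell from 305 ± 23.3 to 199 ± 21.2 (-0.62 ± 0.12).

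Of 68 other genes of the HIF pathway and the hypoxia response, 61 were tested, and *MIR210HG* was not analysed here. Here 7 rose (11.5%, against 5.77% of all tested genes) and 2 fell (3.28%, against 2.08%), with a median log2 fold change of 0.0088. *ARNT2*, a relative of the beta subunit *ARNT*, rose from 653 ± 27.9 (SD) to 1456 ± 108 normalized counts (1.15 ± 0.08, adjusted p = 0.00045). *VLDLR*, a lipoprotein receptor, rose from 739 ± 52.4 to 1331 ± 38.0 (0.85 ± 0.08). *BHLHE40*, a repressor of the circadian and hypoxic response, rose from 12235 ± 512 to 18260 ± 600 (0.58 ± 0.06), with neighbours at 0.27, 0.31 and 0.08. The others with the smallest p were *RRAGD*, a subunit of the Rag GTPases that signal amino acids, at 1.02 ± 0.08, *KLHL24* at 0.58 ± 0.06 and *KDM7A*, a histone demethylase, at 0.90 ± 0.13.

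The genes of that list that fell were *RAB20* and *PLOD2*, named after their values were seen. *RAB20*, a small GTPase of vesicle traffic, went from 400 ± 39.3 (SD) to 182 ± 48.7 normalized counts (log2 fold change -1.16 ± 0.19, adjusted p = 0.0095). *PLOD2*, the lysyl hydroxylase that shapes collagen crosslinks, went from 28864 ± 586 to 14848 ± 4121 (adjusted p = 0.0169), with log2 differences of -0.85, -1.49 and -0.66 in clones 1 to 3. In *PLOD2*, as in *HK2* and *ADM*, every clone was below every Control replicate, with 15983, 10279 and 18282.

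Leaving out each library in turn left *HK2* as the member with an adjusted p below 0.05 every time. Without Control replicate 1 or 3 it was the single such member, and without Control replicate 2 it was joined by *ALDOA*. The loss was not limited to the members. Over all tested genes 503, 563 and 521 had such a p without Control replicate 1, 2 or 3, against 1663 with all libraries. Without clone 1, 2 or 3, 10, 9 and 11 members had an adjusted p below 0.05. The series as a whole had 2574, 1636 and 2137 such genes, against 1663 with every library kept. The rise without clone 1 or 3 was thus not limited to the members. *KDM3A* was not among the members left without clone 3. The direction of all 8 was unchanged in these fits.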

How the data were processed

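RNA-seq libraries (TruSeq Stranded mRNA) from 3 Control replicates and 3 *SAMD1* KO clones were mapped to groups from their titles. The authors aligned reads with RNA-STAR, counted them per gene (featureCounts, per the submitters' processing notes, strand setting not given in the sources used here) and deposited a signal per gene, the count divided by a DESeq2 size factor. In all libraries 100% of values were whole multiples of 1 step (tolerance 0.001), which gave the reads. A second deposited table holds the authors' own fold changes and p-values and was not used.

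Normalized counts were compared on log2(value + 1) with limma 3.58.1 (trend, R 4.3.3) over the 12773 genes with a mean of at least 10, without covariates. All tests were two-sided, with Benjamini-Hochberg adjustment over all tested genes. Alternatives used edgeR 4.0.16 (quasi-likelihood) and DESeq2 1.42.0 on recovered reads, other pseudocounts (0.1, 10), filters (none, 50) and scalings (75th percentile, median), a replicate block, each library left out, and removal of the median shift of 20 neighbouring genes on each side. The fit was tested on simulated data with the same spread in both groups. It was thus not tested for the wider spread between KO clones than between Control replicates. Positions and overlaps are from GENCODE 44 on GRCh38, and RefSeq synonyms gave 173 further matches. Levels per kilobase use the length of the canonical transcript.

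The members and the further lists were chosen with earlier results of these data known. Values by library are given for called members, the 2 with the smallest p in each role group, and pairs whose ratios did not overlap. From each further list up to 6 called genes with the smallest p are named. The 3 libraries per group limit the precision, and for *EGLN3*, *CA12*, *ANGPTL4*, *CA9* and *SLC2A3* in Control, with few reads, counting error adds to it.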

Additional observations from a re-analysis of the deposited data

How the results depend on the processing

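The counts of 2 members called higher and 2 lower were kept with either pseudocount, either filter, both scalings and the replicate block, and *HK2*, *ADM* and *ENO2* were among them in every alternative with the cut-off. With edgeR, DESeq2 or the regional shift removed 3 were higher. An adjusted p below 0.05 in place of the cut-off gave 3 higher and 5 lower. Leaving out 1 library gave 2 lower in each case but without clone 3, which gave 4, and the median log2 fold change of the members ran from -0.12 to 0.0021. The labels give no shared batch for a replicate number, and the deviations of same-numbered libraries correlated at 0.04, 0.13 and 0.03, not all above 0.1, so the numbers were not taken as pairs. As a hint from the data only, 5 of 6 libraries correlated best with their own number. With the replicate as a block the median was -0.04, 2 members were higher and 2 lower, and over all genes 725 and 259 were called instead of 737 and 266.

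Fold changes that crossed 0 belonged to members that were not called, and the cause was not tested. They were *ENO1* (0.019), *LDHA* (0.018) and *ANKRD37* (0.0068) with 75th percentile scaling, *PFKP* (-0.015) with median scaling, *VHL* (-0.068), *LDHA* (0.0031) and *ANKRD37* (0.045) with the regional shift removed, *ENO1* (0.0081) and *LDHA* (0.022) with edgeR, and *ENO1* (0.0043) and *LDHA* (0.017) with DESeq2. With 1 library left out the log2 fold changes ran from -0.013 to 0.057 (*ARNT*), -0.081 to 0.52 (*EPAS1*), -0.097 to 0.20 (*EGLN1*), -0.12 to 0.0018 (*GPI*), -0.065 to 0.042 (*PFKP*), -0.24 to 0.77 (*ALDOC*), -0.053 to 0.071 (*ENO1*), -0.14 to 0.14 (*LDHA*), -0.22 to 0.0094 (*PDK1*), -1.06 to 0.018 (*BNIP3*), -0.066 to 0.062 (*ANKRD37*), -0.19 to 0.0021 (*P4HA1*), -0.63 to 0.16 (*P4HA2*) and -0.096 to 0.068 (*ERO1A*).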
